A study of Homo sapiens with 6 samples.

Results

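The 9 genes described here encode receptors for neurotrophins and other growth factors that are studied in cells of neural crest origin: NTRK2, NTRK3, NGFR, RET, PDGFRA, PDGFRB, EGFR, FGFR1 and AXL. The rule names the genes and uses no measured value, but it was set with earlier results of these data known, and they are 9 of the 20033 protein-coding genes of the annotation used. Open chromatin was mapped with ATAC-seq, an assay in which the Tn5 transposase cuts accessible DNA and tags the ends, and a peak marks a stretch where cuts pile up above the background of its library. The material was SK-N-AS, an established neuroblastoma cell line, grown as xenografts in mice and returned to culture as adherent cells. Naïve cells came from a tumor of vehicle-treated mice, and the R1 and R2 cells came from tumors that had relapsed and were collected while the mice received indisulam, a small molecule that causes the splicing factor RBM39 to be degraded. The cultures themselves received no drug. Every comparison therefore sets cultures of 1 parental line against each other, and the labels describe no step that removed mouse cells from the dissociated tumors. There were 2 libraries for each of the 3 cell types, and the labels do not say whether they were separate cultures, so that the spread between them may be technical. A region called in a culture may be open in many cells or in a part of them, and these cannot be told apart.

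NTRK2 and NTRK3 are receptor tyrosine kinases for the neurotrophins BDNF and neurotrophin-3. NGFR, also called p75, binds all neurotrophins without a kinase domain of its own. RET is the kinase that signals for the ligands of the GDNF family, and it is used by sympathetic and enteric neurons. PDGFRA, PDGFRB, EGFR and FGFR1 are kinases for platelet-derived, epidermal and fibroblast growth factors, and AXL binds GAS6. When a ligand joins 2 receptor molecules of this class, they phosphorylate each other and recruit adaptors that feed the RAS, PI3K and phospholipase C pathways.

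The DNA under some of the intronic summits named below is printed first, so that the regions can be recognised. The intronic region of FGFR1 is not among them, and several of the printed regions overlapped between cell types. Each sequence holds the 101 bases centred on the summit of the library with the highest enrichment there, on the plus strand of hg38, outside annotated exons. Capitals mark matches to the searched motifs, on either strand.
EGFR, intron, 115 kb from the start, chr7:55133931-55134031: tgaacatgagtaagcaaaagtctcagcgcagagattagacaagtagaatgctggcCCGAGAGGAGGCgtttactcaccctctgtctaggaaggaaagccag
EGFR, intron, 174 kb from the start and next to an internal start, chr7:55192535-55192635: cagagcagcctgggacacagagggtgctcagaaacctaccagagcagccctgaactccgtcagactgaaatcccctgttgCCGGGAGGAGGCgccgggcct
NTRK3, intron, 9.76 kb from the start, chr15:88246928-88247028: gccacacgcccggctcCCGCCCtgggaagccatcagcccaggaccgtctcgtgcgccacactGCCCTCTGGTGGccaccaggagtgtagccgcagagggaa
PDGFRA, intron, 4.13 kb from the start, chr4:54233372-54233472: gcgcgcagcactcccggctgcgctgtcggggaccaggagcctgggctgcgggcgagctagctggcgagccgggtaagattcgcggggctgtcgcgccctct
PDGFRB, intron, 12.3 kb from the start, chr5:150143468-150143568: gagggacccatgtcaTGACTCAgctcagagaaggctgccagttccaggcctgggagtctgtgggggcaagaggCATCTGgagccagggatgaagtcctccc
RET, intron, 28.5 kb from the start and next to an internal start, chr10:43105474-43105574: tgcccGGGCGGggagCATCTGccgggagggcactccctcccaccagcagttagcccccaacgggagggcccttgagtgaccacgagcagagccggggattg
AXL, intron, 7.01 kb from the start and next to an internal start, chr19:41226182-41226282: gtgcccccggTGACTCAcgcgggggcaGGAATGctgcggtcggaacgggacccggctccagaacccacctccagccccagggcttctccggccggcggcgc

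The searched motifs were those of AP-1 (spelled TGANTCA), TEAD (spelled GGAATG), the factors of the GATA family (spelled AGATAA), MYC (an E-box spelled CACGTG), HAND and TWIST (an E-box spelled CATCTG) and RUNX (spelled TGTGGT), the GC box of promoters (spelled GGGCGG), the CCAAT box, whose name is its letters, a PHOX2 homeodomain pair and the core of the CTCF motif. The capitals in the PDGFRB and AXL sequences are AP-1 matches, joined by a HAND/TWIST E-box in PDGFRB and a TEAD match in AXL. Both EGFR summits and the NTRK3 summit held a match to the CTCF core, NTRK3 and RET held a GC box, RET also held a HAND/TWIST E-box, and PDGFRA held none. Among the 24147 regions with a peak in all 6 libraries, the AP-1 letters occurred within 50 bp of the summit in 5.34%, the CTCF core in 8.09%, the TEAD letters in 5.52%, the HAND/TWIST E-box in 6.90% and the GC box in 30.1%. In the windows of the 9 genes, 28 such regions were found, and AP-1 letters were present in 4 of them, the CTCF core in 3, the TEAD letters in 2, the HAND/TWIST E-box in 4 and the GC box in 8. GATA, RUNX, MYC E-box and PHOX2 matches were at 0 of 28, against 1.22%, 5.32%, 3.22% and 0.0207% of all such regions, and the CCAAT box was at 3 of 28 against 14.1%. A match is only the presence of these letters.

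The 6 lists differed in depth, which bears on every count below. The lists held 154926 and 115694 peaks for naïve cells, 340558 and 292030 for R1 and 67558 and 73484 for R2, here and below in the order of the replicate numbers. The background rate recovered from each list was 2.29 and 1.35 tags for naïve cells, 7.94 and 5.43 for R1 and 0.850 and 0.899 for R2. Enrichment is the pileup of tags at a summit over this rate, and the lowest enrichment that could be called ranged from 2.27 in an R1 library to 7.06 in an R2 library. For a region or a start it was read at the highest peak of each library, so the summits compared can lie at different places. An absent peak in R2 is therefore not detectable at this depth and not shown to be closed. To lessen the effect of list length, each gene was given a percentile among all coding genes of the same library. It was that of its highest peak within 1 kb of any annotated transcription start, and a gene with no such peak was placed at 0. List length still sets the floor. The lowest percentile of a gene with a peak was 25.1 and 28.6 for naïve cells, 13.0 and 14.5 for R1 and 34.5 and 33.5 for R2. Percentiles of weak genes therefore still depend on depth. A start-site peak in all 6 libraries, which 59.5% of all coding genes had, was present for 11 of 12 markers of adrenergic neuroblasts, 9 of 15 of mesenchymal-type neuroblastoma cells, 1 of 6 blood, 1 of 5 endothelial and 3 of 6 epithelial markers. The mesenchymal and epithelial counts are near the share of all genes and say nothing of cell identity. PTPRC, the common leukocyte antigen, had none in any library. With 2 libraries per cell type, the smallest two-sided p of an exact permutation test is 0.133 for 2 against 4 libraries and 0.333 for 2 against 2, so no such test can reach 0.05. A difference was therefore called where all libraries of one group lay above all of the other, and the share of all genes called in the same way is given beside each count. These limits and this rule count libraries, which the labels do not state to be separate cultures.

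A peak lay in the gene body or within 10 kb of it in all 6 libraries for 8 of the 9 genes, and the share over all coding genes was 70.9%. The exception was NTRK2. The same 8 genes had a start-site peak in all 6 libraries, against 59.5% of all coding genes. Between naïve and resistant cells, 1 of the 9 genes was higher in all 4 resistant libraries (NTRK3, with 8.96% of all genes called) and 0 were lower (11.9%). R1 libraries lay above naïve ones for 4 genes, NTRK2, NTRK3, NGFR and FGFR1 (28.8% of all genes), and below for 3, PDGFRB, EGFR and AXL (24.9%), although the mean enrichment of PDGFRB was higher in R1. R2 libraries lay above naïve ones for NTRK3 alone (14.7%) and below for NGFR, RET and FGFR1 (17.9%), although the mean enrichment of RET and FGFR1 was higher in R2. R2 lay above R1 for PDGFRB and EGFR (19.0%), where EGFR turned to the opposite direction with the canonical start alone, and below it for NGFR, PDGFRA and FGFR1 (31.2%). These comparisons share libraries, and some of the counts changed when 1 library was left out. Without R2 replicate 2 all 9 genes were called between naïve cells and R2, 2 above and 7 below, and 5 between naïve and resistant cells. Without R2 replicate 1, 8 genes were called between R1 and R2. With fewer libraries the groups separate more easily, so these counts could only stay or rise. The share of all genes called under the same omissions was not computed. When enrichment was compared in place of the percentile, the R1 libraries stayed above naïve ones for the same 4 genes and below for EGFR alone, and R2 was above for NTRK3 and PDGFRB and below for none. The 7 genes called in R1 against naïve cells are counted in both directions, and 9 genes chosen by name allow no statement about receptors as a class.

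**Figure D1:**
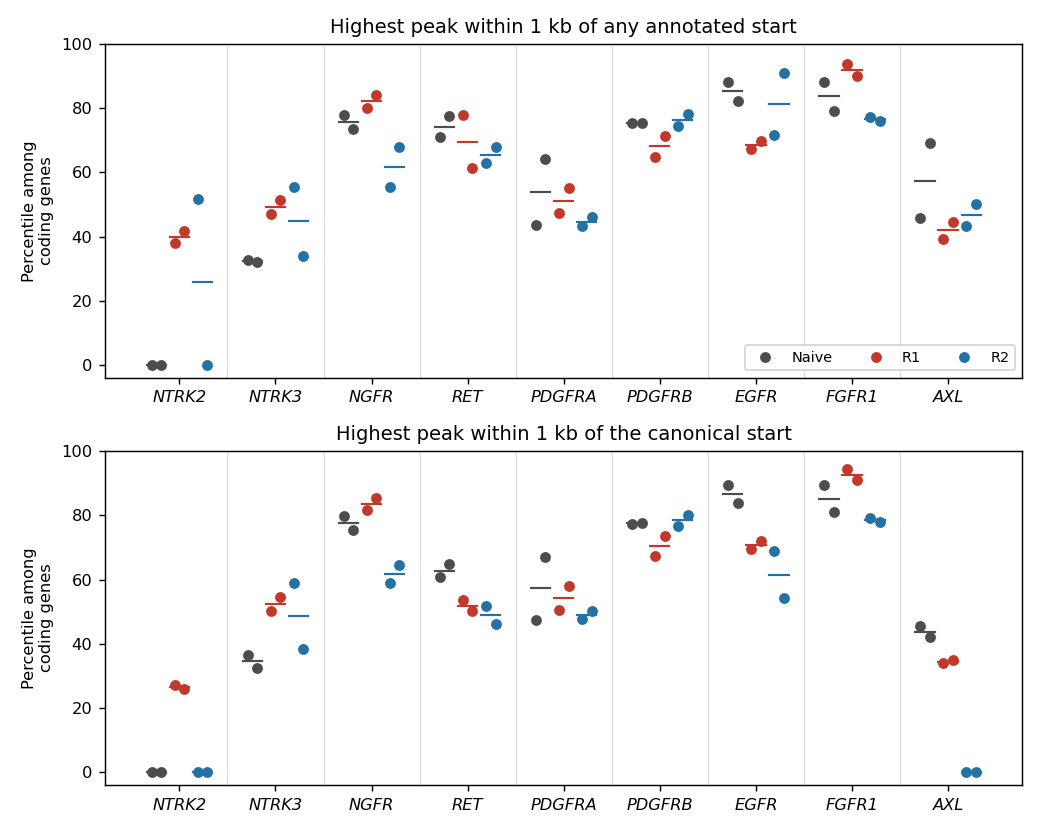
Percentile among coding genes (vertical axis) of the highest peak near a start, for the 9 receptor genes (horizontal axis) in the 2 naïve (grey), 2 R1 (red) and 2 R2 (blue) libraries; points are libraries and bars are means of 2. In the upper panel any annotated start counts, and in the lower panel only the canonical one, where the 4 resistant libraries of RET, EGFR and AXL all lie below the naïve ones and NTRK3 above.

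Some of these genes have internal starts, and the peak that stood for the gene was not always at its main start. For RET it lay about 28 kb into the gene in all libraries, for AXL about 7 kb, and for EGFR about 174 kb in both R2 libraries but at the main start in the others. When only the start of the canonical transcript was used, which was chosen after these values were seen, 3 genes were lower in all resistant libraries (RET, EGFR and AXL; 11.3% of all genes) and 1 was higher (NTRK3; 8.48%).

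Of the neurotrophin receptors, NGFR had a higher start-site percentile than NTRK3 in 5 of 6 libraries and the same value in R2 replicate 1, and NTRK2 was the lowest of these 3 genes in every library. NTRK3 (chromosome 15, 87859751 to 88256791, minus strand) had a start-site percentile of 32.5 and 32.0 for naïve cells, 47.0 and 51.4 for R1 and 55.4 and 34.0 for R2. All 4 resistant libraries were above both naïve ones, by 14.7 percentile points on average, but the lower of them exceeded the naïve values by less than the spread of R2. That value rested on a pileup of 7 tags, and in that library the lowest percentile a gene with a peak could have was 33.5. Enrichment at the NTRK3 start was 6.56 and 7.40 for naïve cells, 13.1 and 13.8 for R1 and 15.3 and 7.79 for R2. Both R1 values were thus above both naïve ones. Exact 95% Poisson intervals, which cover counting error only, were 3.67 to 10.8 and 3.55 to 13.6 for naïve cells. For R1 they were 10.7 to 15.9 and 10.9 to 17.3. The interval of naïve replicate 2 overlapped both R1 intervals, and that of naïve replicate 1 overlapped that of R1 replicate 1. With peaks of a −log10 q of at least 5, or with the top 60000 peaks of each list, the percentiles overlapped and NTRK3 was not called. At the intronic region 9.76 kb into NTRK3 (88245992 to 88247390), whose sequence is printed above, enrichment was 7.87 and 11.1 for naïve cells, 14.7 and 17.3 for R1 and 20.0 and 12.2 for R2. Here too every resistant library had a higher enrichment than both naïve ones, although the rank of the region among regions shared by all libraries overlapped between naïve cells and R2.

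NTRK2 (chromosome 9, 84668375 to 85095751) had almost no peaks over its 427 kb. There was no start-site peak in either naïve library, a pileup of 81 and 59 tags in R1, and 12 tags in 1 R2 library and no peak in the other. The peak was 1.34 kb upstream of the canonical start, at 84668178 to 84668548, with an enrichment of 10.2 and 10.9 in R1 and 14.1 in the R2 library that had it. Its ranks in those lists were 21286, 19170 and 21159. The naïve libraries were deeper than the R2 library that showed the peak, and their lists held none there. Inside the gene, an intronic region at 84954117 to 84954417 had a peak in both R1 libraries and in the R2 library without the start peak, at enrichments of 6.80, 8.10 and 13.4. Canonical-start peaks of NTRK2 were found in R1 only, at 5.92 and 5.52, which is below the enrichment that could be called in R2.

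NGFR (chromosome 17, 49495293 to 49515008) was the most densely covered of the 9 genes. Peaks filled 74.0 and 53.0% of its window for naïve cells, 90.4 and 86.4% for R1 and 23.8 and 27.0% for R2, which placed it between the 96.5th and the 97.9th percentile of all genes in every library. Its strongest region (49511546 to 49517863) spanned the end of the gene, 20.2 kb from the start and near the start of the microRNA gene MIR6165. Enrichment there was 28.0 and 28.9 for naïve cells, 37.3 and 42.5 for R1 and 35.3 and 31.2 for R2. At the NGFR start, enrichment was 17.5 and 18.5 for naïve cells, 24.9 and 25.8 for R1 and 15.3 and 18.9 for R2. The summits differed in place, at 1.26 and 1.22 kb from the canonical start in naïve cells, 0.035 and 0.033 kb in R1 and -0.085 and 1.21 kb in R2. As a percentile, the start stood at 77.8 and 73.4 for naïve cells, 80.2 and 84.1 for R1 and 55.4 and 67.8 for R2. R1 was therefore above and R2 below the naïve libraries in rank, whereas in enrichment only R1 stood apart. A region downstream of NGFR (49519381 to 49527530) had enrichments of 11.8 and 13.3, 18.9 and 19.9, and 12.9 and 13.4, so that R1 was again above the others. The summits of the libraries in that region lay up to 5422 bp apart.

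**Figure D2:**
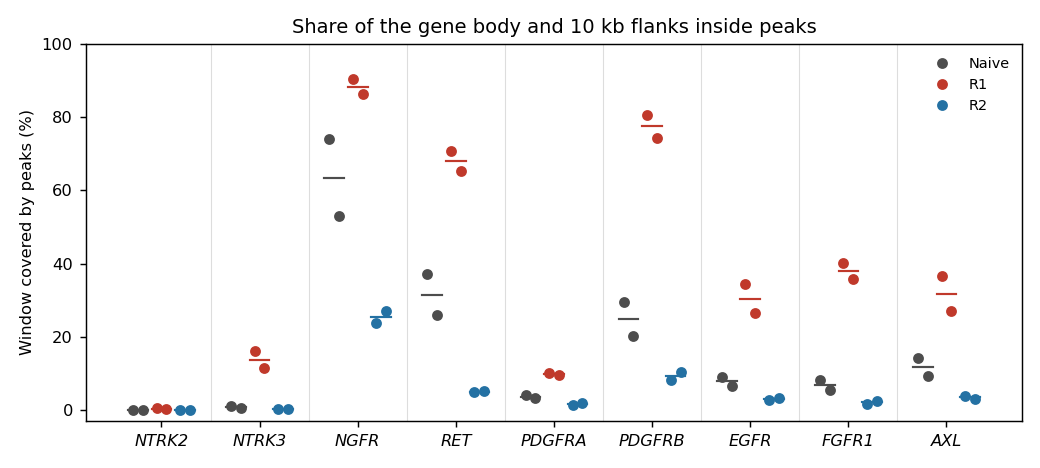
Percent of each gene's window (gene body and 10 kb on each side) that lies inside peaks, for the 9 genes on the horizontal axis, with 2 libraries per cell type as points and their mean as a bar. NGFR is covered the most in every library, and the R1 libraries, which are the deepest, are the highest for all 9 genes.

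RET (chromosome 10, 43077064 to 43130351) was covered by peaks over 37.1 and 26.0% of its window for naïve cells, 70.9 and 65.3% for R1 and 4.93 and 5.08% for R2. Relative to all genes, this was the 89.6th and 90.0th percentile for naïve cells, 91.1 and 91.3 for R1 and 80.5 and 79.3 for R2. The R2 values were lower than all others by more than the spread within any cell type. The region with the highest rank, in the intron 28.5 kb into the gene (43104397 to 43107612), had enrichments of 15.3 and 20.0 for naïve cells, 23.9 and 16.9 for R1 and 17.6 and 18.9 for R2, which overlapped. At the main start of RET (43073135 to 43080072), enrichment was 12.7 and 14.8, 14.2 and 12.5, and 12.9 and 11.1, also overlapping. The rank of that region among shared regions was nevertheless lower in all resistant libraries, at 53.2 and 46.0 in R1 and 31.8 and 20.4 in R2 against 56.9 and 58.5 in naïve cells. The window also holds the start of CSGALNACT2, a gene for an enzyme of chondroitin sulfate synthesis.

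The platelet-derived growth factor receptors had overlapping cell types at most of their regions. PDGFRA (chromosome 4, 54229280 to 54298245) had its strongest region in the intron 4.13 kb from the start (54232750 to 54234498), with enrichments of 19.2 and 14.1 for naïve cells, 22.8 and 21.0 for R1 and 17.6 and 26.7 for R2. The 3 cell types overlapped there. At its start the percentile was 43.5 and 64.3 for naïve cells, 47.4 and 55.0 for R1 and 43.3 and 45.9 for R2, so that the naïve libraries were farther apart than the means of the cell types. An exon of PDGFRA (54281445 to 54281725) carried a peak with an enrichment of 13.1 in naïve library 1 and in no other list, the deepest included. PDGFRB (chromosome 5, 150113839 to 150155872, minus strand) stood at 75.3 and 75.5 for naïve cells, 64.8 and 71.4 for R1 and 74.6 and 78.2 for R2 at its start. Enrichment at that start was 16.6 and 19.2, 18.9 and 20.4, and 22.3 and 23.4, so that the lower percentile of R1 was not a lower enrichment. In its intron, 12.3 kb from the start (150142858 to 150145139), enrichment was 21.0 and 16.3 for naïve cells, 11.8 and 10.5 for R1 and 16.5 and 24.5 for R2. R1 was lower than all other libraries there. By window coverage, PDGFRB was the only gene of the 9 with a higher percentile in all resistant libraries (8.76% of all genes were, and 0 of the 9 against 9.28% were lower), at 94.8 and 94.4 in R1 and 87.4 and 88.8 in R2 against 86.4 and 87.3 in naïve cells. That measure was chosen after the data were seen, and PDGFRB was not called with windows of 2 kb or 50 kb on each side or with peaks of a −log10 q of at least 5. The window also overlaps another coding gene, CSF1R, so the covered bases are not those of PDGFRB alone. The window of PDGFRB held the only region found in all 4 resistant libraries and in neither naïve one, at 150127858 to 150128848 in an intron, with pileups of 42 and 28 tags in R1 and 10 and 8 in R2 and ranks from 35259 to 101052. It was weak in every list, and 1 of 447 regions, or 0.224%, stands beside 0.245% of all regions with that pattern.

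EGFR (chromosome 7, 55019017 to 55211628) held the largest difference of R1 from naïve cells among the 28 regions of the 9 windows that had a peak in all 6 libraries. In its intron 115 kb from the start (55132458 to 55134489), whose sequence opens the list above, enrichment was 24.9 and 28.9 for naïve cells, 7.81 and 7.54 for R1 and 23.5 and 32.3 for R2. The lowest of the other 4 libraries was 3.01-fold above the higher R1 value, and those 4 overlapped between cell types. The pileups were 57 and 39 tags for naïve cells, 62 and 41 for R1 and 20 and 29 for R2, so that R1 had as many tags as naïve cells at several times their depth. Exact 95% Poisson intervals of the enrichment, which cover counting error only, were 18.9 to 32.3 and 20.5 to 39.5 in naïve cells, 5.99 to 10.0 and 5.41 to 10.2 in R1, and 14.4 to 36.3 and 21.6 to 46.3 in R2. Its rank among shared regions fell by 78.4 percentile points from naïve cells to R1, and 17 of the 24147 regions fell as far or farther, or 0.0704%. That share does not give how often the largest difference of 28 regions is as large. From naïve cells to R2 the difference was -8.42 points, and 29.2% of the regions were as low or lower.

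A second intronic region of EGFR, 167 kb from the start (55185223 to 55186554), had enrichments of 21.9 and 14.8 for naïve cells, 6.55 and 5.89 for R1 and 8.23 and 20.0 for R2. It too was lower in R1 than in naïve cells, by 68.1 points of rank, which 0.427% of the regions matched, while the R2 libraries were far apart. The region 174 kb from the start (55191284 to 55193630) did not follow, at 21.0 and 14.1 for naïve cells, 16.4 and 17.3 for R1 and 21.2 and 32.3 for R2. At the main start of EGFR (55018252 to 55020840), enrichment was 22.3 and 22.2, 19.8 and 19.9, and 18.8 and 13.4. All resistant libraries were below the naïve ones there, by a small margin in R1. The canonical-start percentile was 89.3 and 83.8 for naïve cells, 69.6 and 72.0 for R1 and 68.9 and 54.1 for R2. A shorter region 46.8 kb from the start (55065619 to 55066206) had enrichments of 11.4 and 11.1 for naïve cells, 3.78 and 4.42 for R1 and 28.9 for 1 R2 library, with no peak in the other R2 list. Over the 47 shared regions within 5 Mb of EGFR but outside its window, the median change of rank from naïve cells to R1 was 3.67 points upward.

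**Figure D3:**
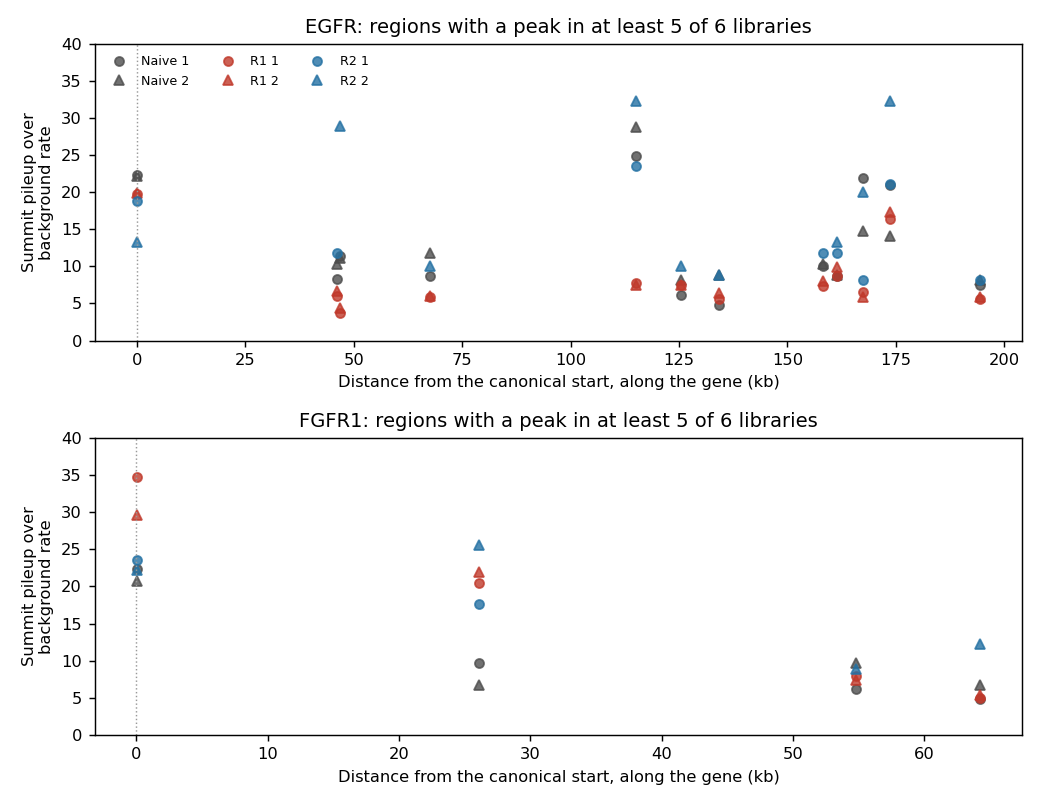
Summit pileup over background rate (vertical axis) against the distance from the canonical start along the gene in kb (horizontal axis), for regions of EGFR (upper) and FGFR1 (lower) with a peak in at least 5 of the 6 libraries; colours are cell types, and circles and triangles are replicates 1 and 2. At 115 kb in EGFR the R1 libraries lie at 7.81 and 7.54 and all others above 23, and at 26.1 kb in FGFR1 the naïve libraries lie at 9.62 and 6.66 and all resistant ones above 17.

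FGFR1 moved the other way. In an intron 26.1 kb from its start, enrichment was 9.62 and 6.66 for naïve cells, 20.5 and 21.9 for R1 and 17.6 and 25.6 for R2, with pileups of 22 and 9, 163 and 119, and 15 and 23 tags. All 4 resistant libraries were above both naïve ones, and the lowest of their 95% Poisson limits, 9.87 in an R2 library, was below the upper limits of the naïve libraries of 14.6 and 12.7. Its rank among shared regions rose by 56.5 points on average, and 71 of the 24147 regions, or 0.294%, rose as far. This was the largest rise of the 28 shared regions in the 9 windows, and the share does not give how often the largest of 28 rises as far. R1 rose by 59.4 points and R2 by 53.5. The median over the 63 shared regions within 5 Mb was 4.97 points. The summit of this region held the AP-1 letters. At the start of FGFR1, enrichment was 22.3 and 20.7 for naïve cells, 34.8 and 29.6 for R1 and 23.5 and 22.3 for R2, so that R1 stood above the others, and its percentile of 93.9 and 90.0 in R1 was the highest of the 9 genes.

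AXL (chromosome 19, 41219223 to 41261766) had a weak main start. Enrichment there was 8.31 and 8.88 for naïve cells and 7.81 and 7.91 for R1, and no peak was called in R2, where an enrichment of 7.06 or 6.68 was the least that could be called. The absence in R2 is thus near the limit of detection. At the internal start 7.01 kb into the gene (41225049 to 41227072), enrichment was 9.18 and 17.0, 10.6 and 11.8, and 11.8 and 13.4, and the naïve libraries were farther apart than any others. The strongest peak in the window of AXL belonged to the start of its neighbour HNRNPUL1, an RNA-binding protein gene, at 41263013 to 41265649, with enrichments of 20.1 and 25.2, 19.1 and 18.8, and 21.2 and 24.5.

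The 6 lists joined into 373067 regions, of which 447 lay in the 9 windows, from 8 for NTRK2 to 150 for NTRK3. A peak in all 6 libraries was present in 28 of them, or 6.26%, against 6.47% of all regions. Regions found in both R1 libraries and in no other list numbered 147, or 32.9%, against 30.0% of all regions, and 64 of them were in NTRK3 and 41 in EGFR. When every list was shortened to its top 60000 peaks, 9 such regions were left. R1 had the deepest lists, and the part of depth in this count was not tested. None of the 447 regions was in the top 20000 peaks of both libraries of 1 cell type and absent from the other 4 lists, nor in those of all resistant libraries and absent from naïve cells. Over all regions, 232 met this rule for R1, 44 for R2, 11 for naïve cells and 33 for resistant cells. Regions in the top 20000 of all 6 lists numbered 8, or 1.79% of the 447 against 2.29% of all regions, 2 of them in NGFR and 1 each in RET, PDGFRA, PDGFRB, EGFR, FGFR1 and AXL. NTRK2 and NTRK3 had none.

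Among the 28 shared regions, 1 had a higher rank in all resistant libraries than in naïve cells, the FGFR1 intron (12.7% of all shared regions were higher), and 6 had a lower one (14.9%). The 6 were 2 regions of RET, 2 of EGFR, 1 upstream of NGFR and the HNRNPUL1 start. R1 was above naïve cells in 8 regions (31.1%) and below in 12 (31.3%), and R2 was above in 1 (21.1%) and below in 12 (23.9%). The count below naïve cells in R2 was thus 12 of 28 where the share over all regions was 23.9%, and the windows hold several regions of the same gene, which are not independent.

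**Figure D4:**
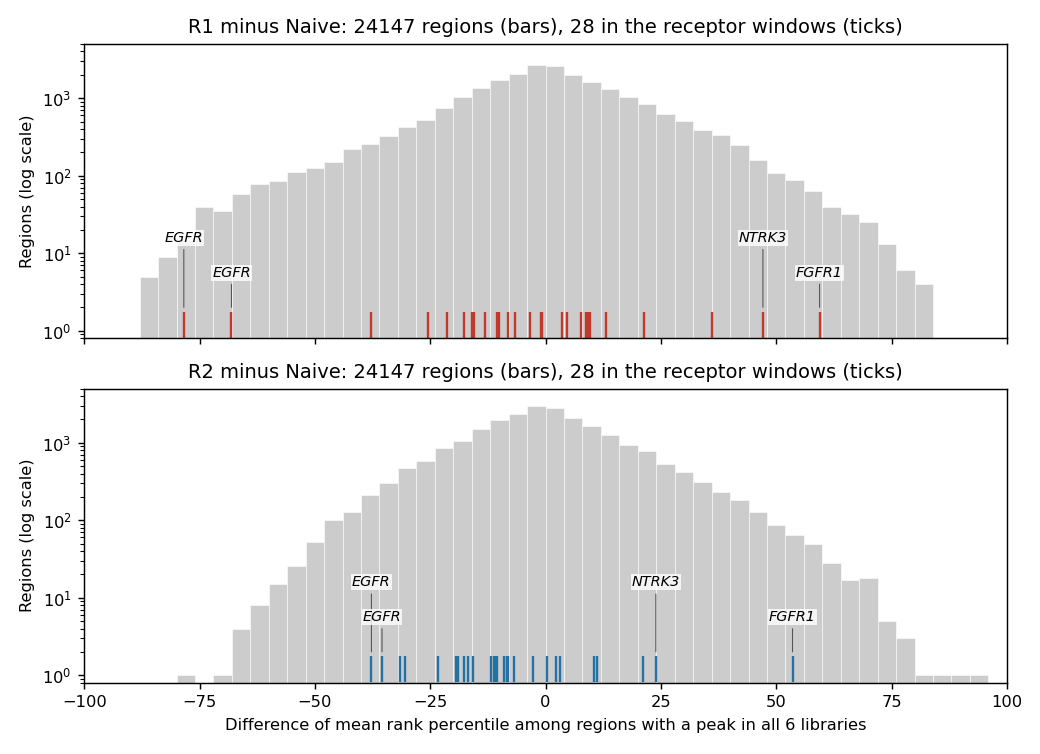
Difference of mean rank percentile from naïve cells (horizontal axis) for R1 (upper) and R2 (lower) over the 24147 regions with a peak in all 6 libraries (grey bars, number of regions on a log scale), with the 28 regions in the receptor windows as coloured ticks. In R1 the ticks reach from -78.4 in EGFR to 59.4 in FGFR1, and in R2 the highest tick is again FGFR1, at 53.5.

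Other genes of these pathways were read in the same way, and their counts of higher and lower genes stand beside the 8.96% and 11.9% of all genes given above. Of 23 related receptor kinases, 17 had a start-site peak in all 6 libraries, 6 were higher in all resistant libraries than in naïve cells and 6 were lower. ALK, a kinase that is mutated in part of neuroblastomas, stood at a percentile of 34.8 and 34.8 for naïve cells, 90.6 and 85.8 for R1 and 66.1 and 54.0 for R2. MET, the hepatocyte growth factor receptor, went the opposite way, from 88.3 and 75.5 to 27.6 and 26.3 in R1, with no start-site peak in either R2 list. The groups did not overlap in either gene. KIT and ERBB2 were also higher in resistant cells, by 28.3 and 17.6 points, and DDR2 and ERBB3 were lower, by 19.8 and 12.6 points in the difference of means.

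Of 27 ligands, 15 had a start-site peak in all libraries, 2 were higher in resistant cells and 5 were lower. PDGFC was at 43.5 and 30.0 for naïve cells, 84.2 and 72.9 for R1 and 59.2 and 70.6 for R2, and HBEGF, a ligand of EGFR, was 11.8 points higher. FGF1, NRTN, which signals through RET, and TGFA, which binds EGFR, were lower by 30.2, 14.5 and 13.0 points. BDNF, the ligand of NTRK2, had a start-site peak in all 6 libraries, with overlapping groups. Of 19 co-receptors and sorting receptors found in the annotation, 5 were higher and 0 lower, among them SDC2, a syndecan, and SORCS2 and SORT1, which bind pro-neurotrophins, by 28.7, 23.8 and 21.0 points. Of 23 adaptors, 4 were higher, with IRS1, SHC4 and IRS2 at 26.1, 22.3 and 10.5 points, and PIK3R2 was lower by 19.6. Of 18 feedback regulators, which limit signaling downstream of these receptors, 6 were higher and 0 lower. The RAS regulators NF1, SPRY2 and SPRED1 were higher by 25.7, 25.6 and 22.2 points, and NF1 had no start-site peak in 1 naïve library. The median difference over the list was 2.11 points for feedback regulators, 6.88 for co-receptors, 3.52 for adaptors, 4.66 for ligands, 2.41 for related kinases and -3.72 for the 9 receptor genes, beside 0 for all genes.

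Over the 3 means of the cell types, the start-site percentile varied the most for NTRK2, by 39.9 points, and then for NGFR, by 20.5. The coding genes with the pattern closest to that of NTRK2, by Euclidean distance over the 6 libraries, were ERAL1, PIP5K1B and SLC36A4, at distances of 4.82, 5.49 and 5.72 points, all with no start-site peak in naïve cells and in 1 R2 library. Those closest to NGFR were PDIA3, GPSM1 and COBLL1, at 5.20, 6.04 and 9.39 points.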

How the data were processed

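ATAC-seq was done on 3 SK-N-AS cell types with 2 libraries each. As the methods and labels state, the authors aligned reads with BWA 0.7.12-r1039, marked duplicates with Picard 1.65, filtered with SAMtools 1.3.1, removed mitochondrial reads, offset read ends for the Tn5 cut and called peaks per library with MACS2 2.2.7.1; bedtools 2.25.0 merged them. Pooled or merged lists were not used here. The deposited score column was not used. Each deposited peak carries a fold (a ratio to the background) with the −log10 of its p and q; the deposited summit offset was used as other positional information. Folds and p-values depend on depth, so peaks were ranked within each list, ties sharing their mean rank. Folds in a list are spaced by a constant step, which gave its background rate, and a summit pileup is the fold times the rate plus 1, less 1. The methods name hg19 and the labels hg19 and hg38; the last peaks of all 24 chromosomes lay within hg38, and that of chromosome 3, ending at 198220314, lies past the end of hg19, so hg38 with GENCODE release 44 was used.

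Windows were the gene body and 10 kb on each side, and start-site peaks lay within 1000 bp of an annotated start. Overlapping peaks were joined into regions. The 9 genes, the gene lists and the rules were chosen with earlier results of these data known. Named regions were the best at a start and the best over 1000 bp from any start of each gene, plus any region restricted to a cell type; further regions were named after their values were seen. From each list, at most 3 genes per direction with the largest difference were named. Scripts were tested on simulated data. Alternatives were other windows, start distances, thresholds, list lengths, measures and left-out libraries. Python 3.11.15, NumPy 2.4.6, pandas 2.3.3, SciPy 1.17.1 and matplotlib 3.10.9 were used.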

Additional observations from a re-analysis of the deposited data

Results flagged for a closer look

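The start-site percentile of NGFR moved in opposite directions in the resistant cell types: both R1 libraries lay above and both R2 libraries below the naïve ones, and R1 exceeded R2 by 20.5 points. FGFR1 showed the same pattern, with a difference of 15.4 points. Over all coding genes, 321, or 1.60%, had R1 above and R2 below naïve cells. The difference was not tested, since 2 against 2 libraries cannot reach 0.05. In enrichment, R2 overlapped the naïve libraries at both starts, and its mean was above theirs for FGFR1. The libraries also differed in depth in the same order, with R1 the deepest and R2 the shallowest, and the part of depth in this pattern was not tested.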

How the results depend on the processing

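Of 115 recomputed counts, 88 stayed within 1.5 times the reported value and 27 moved farther, and the cause was not tested unless given here. Some of the 88 could not have moved. Leaving out a library cannot lower a count of called genes or of genes with a peak in every library. Among 9 genes, a count of 7 or 8 cannot rise past 1.5 times. The 1 gene called between naïve and resistant cells at the start became 2 with starts within 500 bp (NTRK3, and PDGFRA lower), 0 with a −log10 q of at least 5, 0 with the top 60000 peaks, 4 with the canonical start alone, 3 with the best peak of the window (NTRK2 higher, EGFR and AXL lower) and 1 to 5 when 1 library was left out, with 5 without R2 replicate 2, 3 without naïve replicate 1 and 2 without R1 replicate 1. NTRK3 was among them in each of those omissions, which was fixed in advance, because leaving out a library cannot undo a call under this rule. The 4 genes called between naïve cells and R2 became 2 by enrichment and 4 to 9 without 1 library, and the 5 between R1 and R2 became 6 to 8. The 7 genes called between naïve cells and R1 became 5 by enrichment, with EGFR alone below, and were 7 or 8 in the other alternatives. That count stayed within 1.5 times, past which it could not rise. By window coverage, the 1 gene called became 2 at 2 kb (PDGFRA and AXL lower), 4 at 50 kb (FGFR1 higher, RET, PDGFRA and AXL lower), 4 with the top 60000 peaks and 1 with the stricter q, which was NTRK2 in place of PDGFRB. Leaving out a library gave 1 to 4, with 4 and 3 without naïve replicate 1 and 2, and 2 without either R2 library.

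The 28 regions with a peak in all 6 libraries became 47 at 50 kb, 28 to 42 without 1 library and 0 where a peak had to cover a share of 0.5 of the joined region. That last setting and the 2 other coverage windows were added after the data were seen. Requiring the overlap of the peak or the region changed nothing by construction. The 147 regions of R1 alone became 9 with the top 60000 peaks, and 149 to 270 without 1 library, with 270 without R1 replicate 2. The 7 regions with a rank that did not overlap between naïve and resistant cells became 13 at 50 kb and 8 to 17 without 1 library, with 15 and 17 without naïve replicate 1 and 2, and 16 and 17 without R2 replicate 1 and 2. The called NTRK3 difference between naïve and resistant cells kept its sign in every alternative. With a library left out, the sign could not change, because the groups did not overlap. Of the other called differences, whose alternatives were added after the data were seen, 4 changed sign. By log2 enrichment, PDGFRB in R1 was 0.14 above naïve cells, and RET and FGFR1 in R2 were 0.063 and 0.090 above them, where their percentiles were lower. With the canonical start alone, EGFR was at -9.27 points in R2 minus R1 in place of a positive difference. Ranking by fold called the same genes as ranking by p, which was fixed in advance, because both follow the summit pileup over 1 background rate per list. The weakest peaks of R2 rest on a few tags. No paired analysis was possible because the results come from no test, and a shared replicate number is not stated to mark a shared culture or day.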
